A study of Homo sapiens with 3 samples.

Results

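EPCAM, CDH1, CLDN4, ELF3 and ESRP1 are 5 genes of the epithelial programme, and the histone marks called around them in LNCaP cells are described here. LNCaP is an established line from a metastatic human prostate carcinoma that keeps luminal epithelial features and responds to androgen. The series has 3 LNCaP samples: ChIP-seq (sequencing of the DNA bound to an immunoprecipitated protein) of H3K27ac, ChIP-seq of H3K4me1, and an input without antibody, which was not analysed here. The labels name no treatment or genetic change of the cells. Each mark had 1 library and 1 deposited list of called regions, so there is no replicate spread, no test could be made, and all values describe these lists. The lists hold no read counts and their depth is unknown, so a stretch without a region cannot be read as a stretch without the mark.

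The members were all regions that shared at least 1 bp with a fixed hg19 window around each gene. The windows were chr2:47560001-47640000 for EPCAM, chr16:68760001-68880000 for CDH1, chr7:73220001-73270000 for CLDN4, chr1:201950001-202010000 for ELF3 and chr8:95630001-95740000 for ESRP1, 420 kb in all. They held 35 of the 71077 H3K27ac regions and 66 of the 200812 H3K4me1 regions. The rule uses positions only and no measured value, although the genes were proposed with earlier results of these data known. The label calls the genes luminal, and the lists measure no RNA, so their expression in LNCaP was not checked here.

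Epithelial cells are held in sheets by adherens and tight junctions, and this state is kept by transcription factors and by splicing factors that act on the same cell fate. CDH1 encodes E-cadherin, the calcium-dependent adhesion molecule of adherens junctions. EPCAM encodes a surface glycoprotein of epithelial cells, and CLDN4 a claudin of tight junctions. ELF3 is an ETS family transcription factor of epithelia, and ESRP1 an RNA-binding protein that directs epithelial splice forms. H3K27ac marks active enhancers and promoters, H3K4me1 marks enhancers whether active or only primed, and H3K4me1 is commonly low right at active start sites.

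All 5 genes are read towards higher coordinates, as the promoter table gives for ELF3 and CLDN4 and as is general knowledge for EPCAM, CDH1 and ESRP1, whose strand the tables used here do not give. The lower side of each window is therefore the side of the gene's start. An hg19 gene annotation was not used here, and gene starts and ends were therefore not placed by coordinate. Where the length of the gene exceeds the flanks left in its window, the gene must cover a fixed middle stretch wherever it lies. This holds for CDH1 (98246 bp in RefSeq, GRCh38) and ESRP1 (66293 bp), and not for EPCAM (17710 bp), ELF3 (6597 bp) or CLDN4 (1695 bp).

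The promoter table matched 2 of the 5 genes, ELF3 and CLDN4, whose widest acetylated regions had no break in H3K4me1. EPCAM, CDH1 and ESRP1 were not in it. No start was placed in the hg19 windows, so whether the 250 bases before each start lie in those regions was not determined. The bases are shown for their letters only. They come from RefSeq (GRCh38.p14, forward strand, chr1:202010337-202010586 for ELF3 and chr7:73830746-73830995 for CLDN4) and capitals mark the matches to the motifs searched.
ELF3: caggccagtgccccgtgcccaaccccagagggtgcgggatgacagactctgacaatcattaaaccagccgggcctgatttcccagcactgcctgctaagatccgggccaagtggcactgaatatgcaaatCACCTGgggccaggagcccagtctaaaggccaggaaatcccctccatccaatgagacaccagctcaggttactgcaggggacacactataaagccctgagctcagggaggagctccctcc
CLDN4: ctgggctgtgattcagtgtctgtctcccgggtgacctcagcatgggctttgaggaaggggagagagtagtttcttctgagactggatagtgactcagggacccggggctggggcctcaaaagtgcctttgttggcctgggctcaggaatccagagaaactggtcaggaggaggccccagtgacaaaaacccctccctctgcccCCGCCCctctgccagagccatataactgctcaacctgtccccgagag

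The motifs were searched on both strands and did not overlap in these letters. They were the E-box CAGGTG, which SNAI and ZEB repressors of the epithelial state bind, AACCGGTT of grainyhead factors, the GC box GGGCGG, and TGTTTAC of forkhead factors. ELF3 had 1 match, CACCTG (the E-box on the reverse strand), 120 to 115 bases before the start. CLDN4 had 1 match, CCGCCC (the GC box on the reverse strand), 47 to 42 bases before the start. Of all 35116 promoters of this length in the table, 17.5% held the E-box, 42.6% the GC box, 2.98% the forkhead motif and 0.117% the grainyhead motif. Each of the 2 sequences held 4 CG pairs, against a median of 11 over all promoters, and 34.3% of promoters held as few. Their GC content was 58.4% and 58.8%, beside a median of 58.0%. These matches describe letters only and no factor was measured.

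Both marks covered a larger share of each of the 5 windows than of all chromosomes, and the order of the genes was the same for both. H3K27ac covered 47.1% of the ELF3 window, 28.0% at CDH1, 27.4% at CLDN4, 19.3% at ESRP1 and 11.9% at EPCAM. H3K4me1 covered 66.7%, 42.1%, 38.6%, 21.4% and 16.9% in the same order. ELF3 thus stood first and EPCAM last for both marks, while CDH1 and CLDN4 lay within 1 point of each other for H3K27ac. Over all chromosomes the lists covered 4.65% for H3K27ac and 9.45% for H3K4me1. The windows exceeded these shares by 10.1-fold (ELF3) to 2.55-fold (EPCAM) for H3K27ac and by 7.05-fold to 1.78-fold for H3K4me1.

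**Figure D1:**
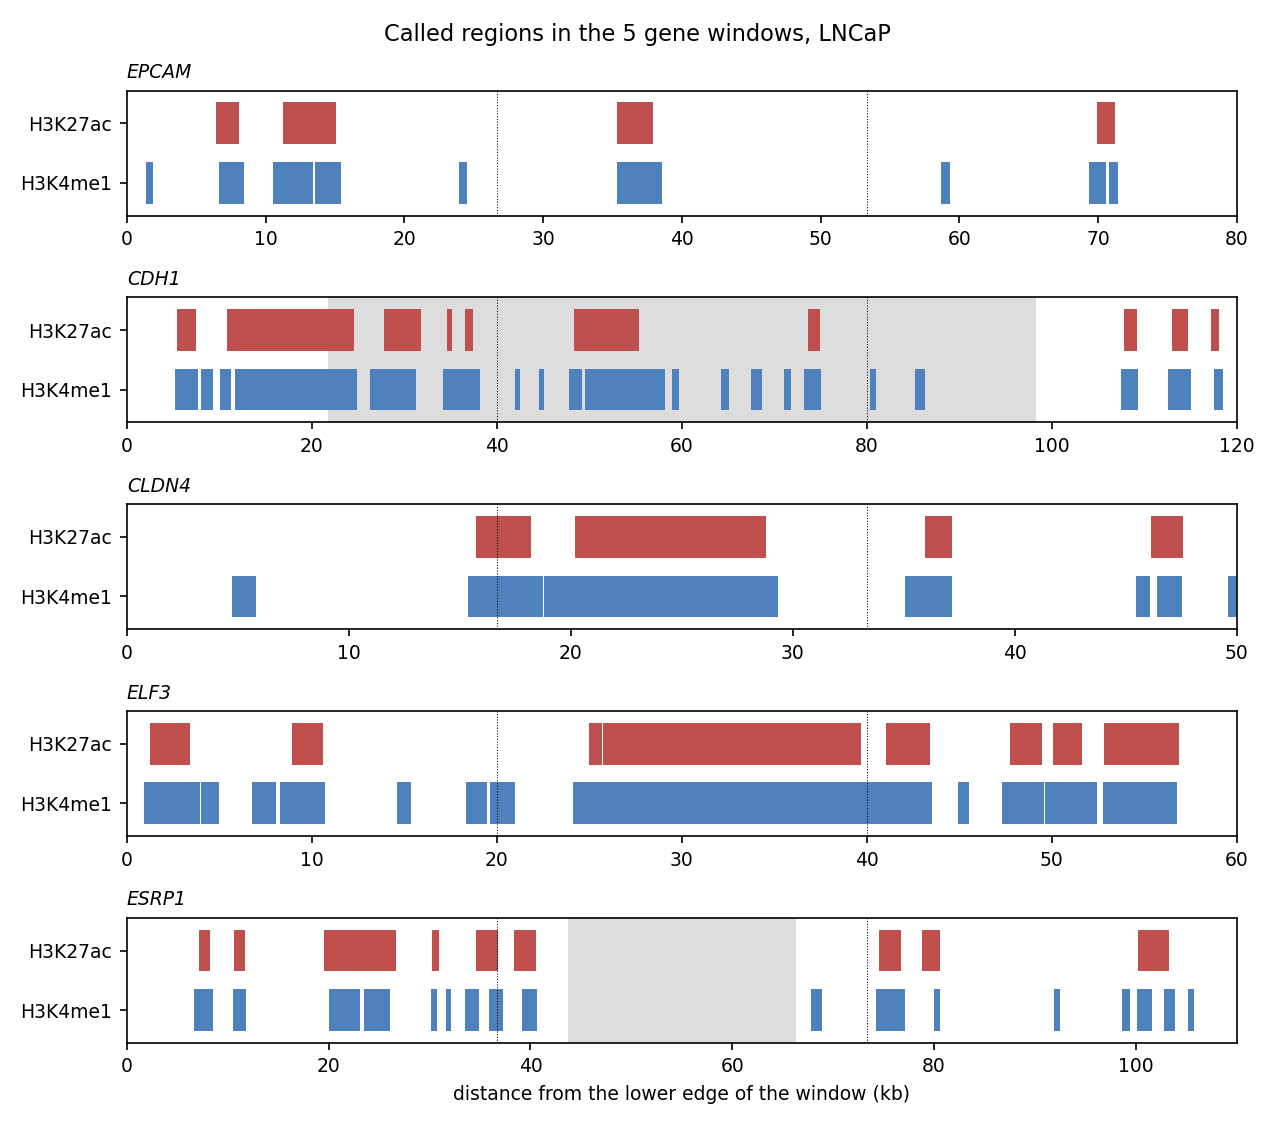
Position of every called region in the 5 windows, as distance in kb from the lower edge of the window (H3K27ac red, H3K4me1 blue, dotted lines at 3 equal parts, grey where the length of CDH1 or ESRP1 fixes that the stretch lies inside the gene). All 35 H3K27ac regions overlap H3K4me1 by at least 1 bp, and the grey stretch of ESRP1 holds no region of either list.

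Each window was also ranked among all stretches of the same length that tile the chromosomes. H3K27ac cover as high as at ELF3 was found in 0.400% of 51539 tiles of 60 kb, as at CDH1 in 1.22% of 25765 tiles of 120 kb, and as at CLDN4 in 2.40% of 61850 tiles of 50 kb. ESRP1 was matched by 3.91% of 28107 tiles of 110 kb and EPCAM by 11.7% of 38650 tiles of 80 kb. For H3K4me1 the shares were 0.334% (ELF3), 1.98% (CDH1), 3.99% (CLDN4), 13.3% (ESRP1) and 19.8% (EPCAM). EPCAM and, for H3K4me1, ESRP1 thus lay among stretches that are not rare in these lists. Tiles were not matched for genes, and a window drawn around a gene differs from a tile in that too.

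The stretches of equal length directly below and above each window held less H3K27ac in every case. At CDH1 they held 2.96% below and 2.88% above, and at EPCAM 2.38% and 2.44%. At ESRP1 they held 4.77% and 7.18%, and at ELF3 7.08% and 21.4%. At CLDN4 the lower stretch held 16.1% and the upper stretch no region. The gene on the lower side of CLDN4 in RefSeq order is CLDN3, another claudin. H3K4me1 was also highest in the window at all 5 genes, but at EPCAM by 16.9% against 13.5% below, and at ESRP1 by 21.4% against 15.0% below and 15.5% above.

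**Figure D2:**
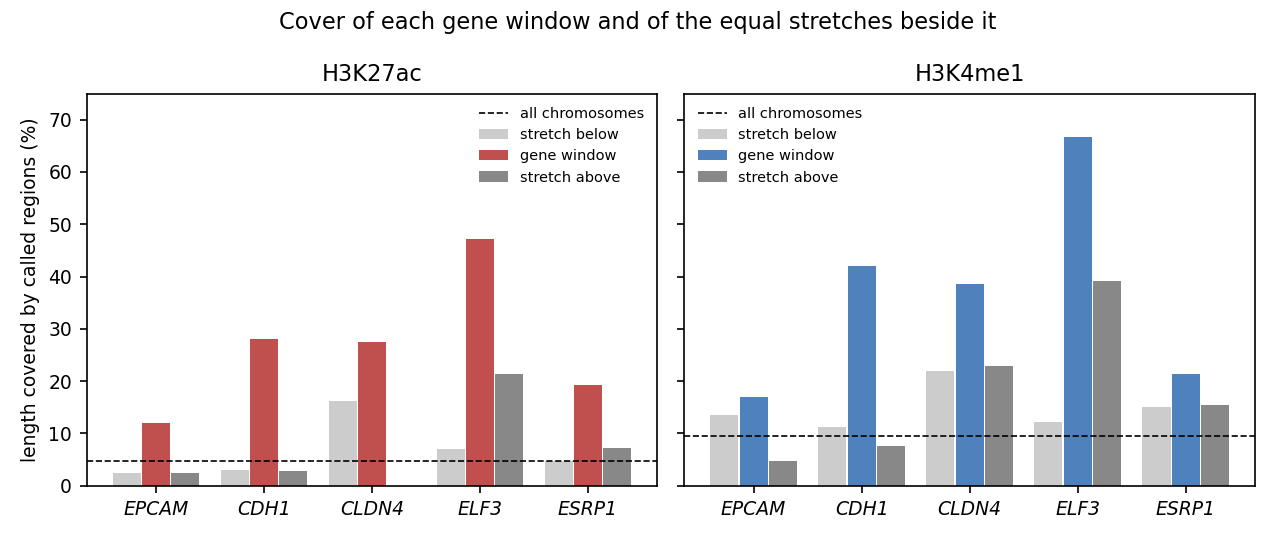
Length covered by called regions (%) in each gene window (coloured) and in the equal stretches below (light grey) and above it (dark grey), with the share over all chromosomes as a dashed line (4.65% for H3K27ac, 9.45% for H3K4me1). The coloured bar is the highest of its group for all 5 genes and both marks.

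CDH1 carried its widest acetylation at the start side. The window held 10 H3K27ac and 21 H3K4me1 regions. The first 21.8 kb (chr16:68760001-68781754) must hold the start of the gene, and there H3K27ac covered 60.0% and H3K4me1 69.4%. The next 76.5 kb, which lie inside the gene, were covered to 21.7% and 39.5%, and the last 21.8 kb, which hold its end, to 18.4% and 23.9%. Cover thus went down from start to end for both marks.

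The widest CDH1 region, chr16:68770801-68784600, measured 13800 bp, and 0.265% of all H3K27ac regions were as wide. It made up 41.0% of the acetylated length in the window. H3K4me1 covered 97.1% of it and left 1 break of 400 bp, chr16:68771251-68771650, 450 bp from the region's lower edge. This break falls in the stretch that must hold the start. On its upper side an H3K4me1 region of 13200 bp ran past the end of the acetylated region by 250 bp.

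Inside CDH1 the second wide region was chr16:68808351-68815400 (7050 bp), as wide as 1.63% of the list. Its H3K4me1 also had 1 break, of 350 bp at chr16:68809201-68809550. Between these lay chr16:68787801-68791750 (3950 bp) and narrow regions of 550 and 900 bp that shared 1 H3K4me1 region of 4050 bp. Farther on came 1 region of 1300 bp (chr16:68833651-68834950), and then no H3K27ac for 32900 bp. The far side held regions of 1350, 1750 and 900 bp from chr16:68867851 to 68878100, where the gene's end and the neighbour TANGO6, the next coding gene in RefSeq order, cannot be told apart. The last gene on the lower side in that order is CDH3, P-cadherin, typical of basal cells.

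Of the 21 H3K4me1 regions at CDH1, 11 (52.4%, interval 29.8% to 74.3%, exact Clopper-Pearson 95%, for counting error only) met H3K27ac, where 34.5% of the whole H3K4me1 list did. The other 10 met none, and 9 of these reached into the stretch fixed as inside the gene, from chr16:68801951-68802500 to chr16:68845251-68846250. They were 550 to 1250 bp wide (median 875 bp), against a median of 2400 bp for the 11 that met H3K27ac. The widest, chr16:68768051-68769300, was the only one outside that stretch, on the start side.

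CLDN4 showed 1 compact block near the middle of its window. The 4 H3K27ac regions were chr7:73235751-73238200 (2450 bp), chr7:73240201-73248800 (8600 bp), chr7:73255951-73257150 (1200 bp) and chr7:73266151-73267600 (1450 bp). The region of 8600 bp, as wide as 0.957% of the list, made up 62.8% of the acetylated length, the highest such share of the 5 genes. It lay wholly inside 1 H3K4me1 region of 10550 bp (chr7:73238801-73249350), which ran past it by 1400 bp below and 550 bp above. No break in H3K4me1 was called within it. The gene itself is far shorter than this block, so the block extends beyond the gene wherever it lies.

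By parts, H3K27ac covered 5.50% of the lower, 60.8% of the middle and 15.9% of the upper 16.7 kb of the CLDN4 window, and H3K4me1 14.2%, 75.8% and 25.8%. The order of the outer parts depended on the division, since in 2 equal parts the lower side exceeded the upper by 3.20 points for H3K27ac and 8.0 for H3K4me1. The upper side may belong to METTL27, the next coding gene in RefSeq order. The H3K4me1 regions without H3K27ac were chr7:73224751-73225800 (1050 bp), chr7:73265451-73266100 (650 bp) and chr7:73269601-73270950 (1350 bp), and the last of them crossed the window's edge.

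EPCAM had as many H3K27ac regions as CLDN4, with a median width of 2150 bp beside 1600 bp over the whole list. The widest of them was narrower than the widest at each other gene. Its 4 H3K27ac regions were chr2:47566401-47568100 (1700 bp), chr2:47571251-47575100 (3850 bp), chr2:47595301-47597900 (2600 bp) and chr2:47629901-47631250 (1350 bp). The gene takes 17710 bp of the 80 kb window and its neighbours are not reported here. Some of these regions may therefore be marks of other genes. The regions of 3850 and 2600 bp had the lowest score of the list, 0.001, taken as the most stringent. The widest was in the lower part of the window, which may be flank, and 8.60% of the list was as wide. The region of 2600 bp lay closest to the middle of the window. It began at the same position as an H3K4me1 region of 3300 bp, which covered all of it and ran 700 bp farther on the upper side.

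Between that region and the next acetylated one lay 32000 bp without H3K27ac, with 1 H3K4me1 region of 650 bp in it (chr2:47618651-47619300). H3K27ac covered 20.8% of the lower, 9.75% of the middle and 5.06% of the upper 26.7 kb, and H3K4me1 28.9%, 12.4% and 9.37%. The lower part was therefore the richest. The gene (17710 bp) is shorter than this part and its start was not placed, so the lower part may be flank. Placing the gene in the middle of the window, which is an assumption, gave 8.45% within 5 kb of the assumed start for H3K27ac. It gave 12.0% in the flanks, and neither value locates the promoter. H3K4me1 had 1 break of 150 bp (chr2:47573401-47573550) in the region of 3850 bp and 1 of 250 bp (chr2:47630551-47630800) in that of 1350 bp. The other H3K4me1 regions without H3K27ac were chr2:47561351-47561900 (550 bp) and chr2:47583951-47584550 (600 bp).

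ELF3 had the widest regions of both marks among the 5 genes. Its 8 H3K27ac regions included chr1:201975751-201989700 with 13950 bp, the widest of all 35, and 0.255% of the list was as wide. A region of 700 bp lay 50 bp below it and 1 of 2350 bp (chr1:201991051-201993400) lay 1350 bp above. All 3 were inside a single H3K4me1 region of 19400 bp (chr1:201974101-201993500). Only 75 of the 200812 H3K4me1 regions, 0.0373%, were as wide. No break in H3K4me1 was called within any of the 8 acetylated regions, but only 17.8% of the whole H3K27ac list had one. Of the 8, 7 lay wholly inside 1 H3K4me1 region, beside 33.1% of the list.

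H3K27ac covered 19.2% of the lower, 73.2% of the middle and 48.8% of the upper 20.0 kb at ELF3, and H3K4me1 49.8%, 84.5% and 65.8%. The upper part held chr1:202002801-202006900 (4100 bp) and regions of 1700 and 1600 bp besides that of 2350 bp. The lower part held regions of 2150 bp (chr1:201951251-201953400) and 1700 bp, and 4 of the 6 H3K4me1 regions without H3K27ac. The long noncoding gene ELF3-AS1 is the nearest gene below ELF3 in RefSeq order, followed by the aminopeptidase gene RNPEP among coding genes. Above ELF3 the nearest gene of any kind is LOC105371684, and the next coding gene is GPR37L1. Marks of such neighbours and of ELF3 cannot be told apart in these lists.

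ESRP1 had an interior without called regions. Its 9 H3K27ac and 17 H3K4me1 regions lay on both sides of chr8:95673708-95696293, 22.6 kb that must lie inside the gene and held no region of either list. The first 43.7 kb, which hold the start, were covered to 32.8% by H3K27ac and 33.1% by H3K4me1, and the last 43.7 kb, which hold the end, to 15.8% and 20.8%. The gap without H3K27ac ran for 34050 bp (chr8:95670501-95704550) and that without H3K4me1 for 27150 bp. Long gaps in both marks were not particular to ESRP1. Neither list had a region on chr16:68846251-68867500 at CDH1 (21250 bp), a gap that begins inside the gene. The same held for chr2:47598601-47618650 at EPCAM (20050 bp). How common such gaps are over the whole lists is not given here.

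The widest ESRP1 region, chr8:95649501-95656650, measured 7150 bp, and 1.57% of the list was as wide. H3K4me1 ended inside it on both sides, by 500 bp below and 550 bp above, and had a break of 350 bp at chr8:95653151-95653500. It was covered to 80.4% by H3K4me1, whereas at the other 4 genes H3K4me1 ran past the widest acetylated region on both sides. The other regions on the start side measured 1150, 1050, 700, 2150 and 2150 bp. On the far side lay chr8:95704551-95706700 (2150 bp), chr8:95708801-95710550 (1750 bp) and chr8:95730251-95733250 (3000 bp). The last had a score of 0.001 and an H3K4me1 break of 1150 bp in it (chr8:95731601-95732750), the longest of the 7 breaks. A break of 950 bp lay at chr8:95664901-95665850. The widest H3K4me1 region was chr8:95650001-95653150 (3150 bp), below the break in the widest acetylated region. The 5 H3K4me1 regions without H3K27ac were chr8:95661601-95662150, chr8:95697801-95698850, chr8:95721901-95722500, chr8:95728651-95729450 and chr8:95735201-95735800, 550 to 1050 bp wide. DPY19L4 is the next coding gene above ESRP1 in RefSeq order, and VIRMA the last coding gene below. The nearest gene of any kind below is LINC02894. Marks of these neighbours and of ESRP1 cannot be told apart in these lists. This includes the region of 3000 bp with the longest break, near the upper edge of the window.

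**Figure D3:**
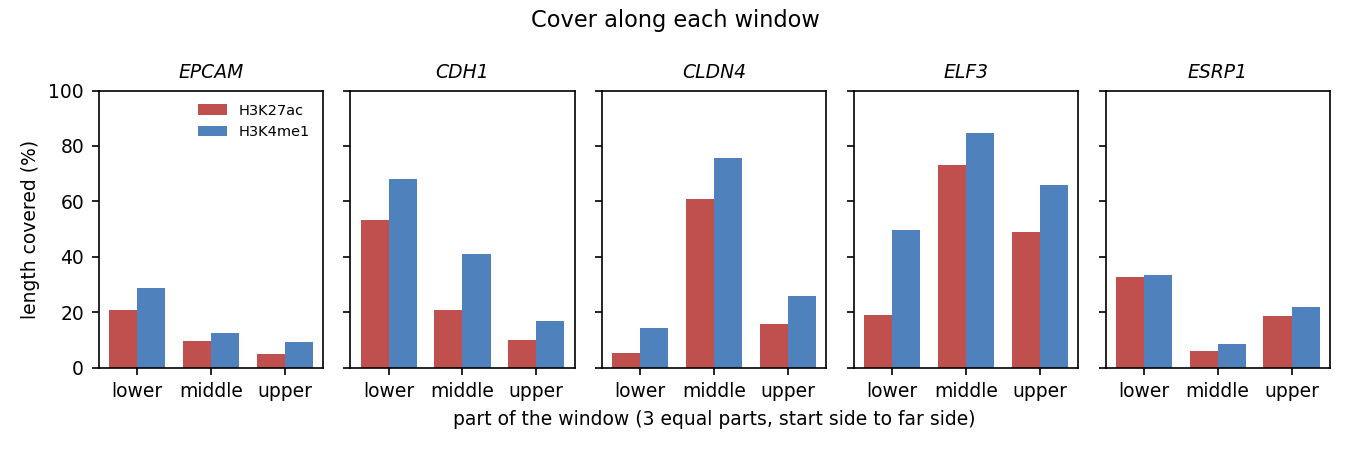
Length covered (%) by H3K27ac (red) and H3K4me1 (blue) in the lower, middle and upper of 3 equal parts of each window, from the start side to the far side. The lower part is highest at EPCAM, CDH1 and ESRP1 (20.8%, 53.2% and 32.9% for H3K27ac) and the middle part at CLDN4 and ELF3 (60.8% and 73.2%).

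The genes thus parted in where cover was highest. At CDH1 H3K27ac covered 53.2%, 20.9% and 10.0% from the lower to the upper part, and at ESRP1 32.9%, 6.23% and 18.8%. For H3K4me1 these shares were 68.0%, 41.2% and 17.0% at CDH1 and 33.6%, 8.68% and 22.0% at ESRP1. CLDN4 and ELF3, the shortest of the genes, had the middle part highest, and EPCAM the lower part. Since each window was drawn around its gene, a short gene leaves most of its window as flank, and the parts do not stand for the same portion of each gene.

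Every one of the 35 H3K27ac regions met an H3K4me1 region (exact Clopper-Pearson 95% interval 90.0% to 100%, for counting error only and treating neighbouring regions as independent), where 83.1% of the whole H3K27ac list did. The 5 regions under 1 kb all did so too (interval 47.8% to 100%), and the 62.8% of such regions in the list lies within that interval. A wholly enclosing H3K4me1 region was found for 20 of the 35 (57.1%, interval 39.4% to 73.7%), against 33.1% of the list. H3K4me1 ran past both edges of 24 (68.6%, interval 50.7% to 83.1%), against 41.0%. It ran past the lower edge of 28 and past the upper edge of 28, so neither side was favoured. A break with H3K4me1 on both sides was seen in 7 (20.0%, interval 8.44% to 36.9%), close to the 17.8% of the list. The score of 0.001 was carried by 10 (28.6%, interval 14.6% to 46.3%), against 14.3%.

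The 7 breaks lay at CDH1 (2), EPCAM (2) and ESRP1 (3) and measured 150 to 1150 bp, with a median of 350 bp. By length, H3K4me1 covered 99.5% of the acetylated length at ELF3, 97.8% at CLDN4, 95.4% at CDH1, 93.2% at EPCAM and 73.4% at ESRP1. The ESRP1 window, flanks included, thus had the largest acetylated length without H3K4me1, 5650 bp, against 150 to 1550 bp in the other windows. In the whole lists 71.5% of the H3K27ac length was covered, so ESRP1 was near that share and the other 4 genes were above it.

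H3K4me1 met H3K27ac in 39 of 66 regions (59.1%, interval 46.3% to 71.0%), above the 34.5% of its list. Among the 20 under 1 kb only 3 did (15.0%, interval 3.21% to 37.9%), near the 12.6% of such regions in the list. Median width was 2100 bp for the regions that met H3K27ac and 800 bp for the other 27, and none of those 27 was wider than 1350 bp. Regions wholly inside 1 H3K27ac region numbered 4 (6.06%), 3 at ESRP1 and 1 at CLDN4, beside 6.88% of the list. Scores of 0.003 or less were carried by 29 (43.9%, interval 31.7% to 56.7%), against 27.8% of the list. Among the 27 without H3K27ac 3 did so (11.1%, interval 2.35% to 29.2%), near the 12.3% of such regions in the list.

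**Figure D4:**
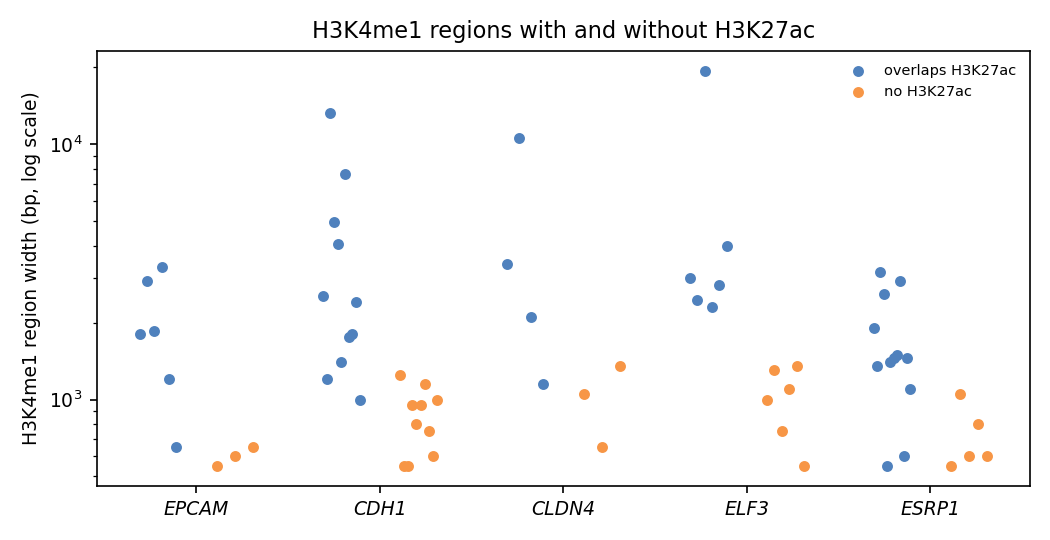
Width in bp (log axis) of each of the 66 H3K4me1 regions by gene, for the 39 that overlap H3K27ac (blue) and the 27 that do not (orange). No orange point exceeds 1350 bp, while the blue points reach 19400 bp at ELF3.

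The balance of the marks was similar at 4 of the genes. The H3K27ac length divided by that of H3K4me1 was 0.666 at CDH1, 0.704 at EPCAM, 0.706 at ELF3 and 0.710 at CLDN4, and 0.902 at ESRP1. Over the whole lists it was 0.492. H3K4me1 was the longer mark in all 5 windows. Both marks together lay on 98050 bp of the 420 kb, and neither mark was called on 82.3% of the EPCAM window, 73.5% at ESRP1, 60.8% at CLDN4, 56.6% at CDH1 and 33.1% at ELF3.

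Joining H3K27ac regions at most 10 kb apart over the whole list gave 40686 clusters, and 13 met a window. The cluster at ELF3, chr1:201975001-202034500, reached beyond the window. It held 9 regions, 6 of them in the window, that covered 34150 bp, which ranked it 152 by covered length. The CDH1 cluster, chr16:68756001-68797450, also reached beyond the window. It held 6 regions, 5 of them in the window, with 21900 bp and ranked 446. At ESRP1 chr8:95637101-95670500 held 6 regions with 14350 bp (rank 1153), and at CLDN4 all 4 regions joined in chr7:73235751-73267600 with 13700 bp (rank 1248). EPCAM had no cluster of more than 2 regions, and its longest, chr2:47566401-47575100, covered 5550 bp (rank 6146). The EPCAM region of 2600 bp stayed alone. H3K4me1 covered 99.0% of the acetylated length of the ELF3 cluster, 97.8% at CLDN4, 95.4% at CDH1 and 76.7% at ESRP1.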

How the data were processed

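The labels' protocols describe crosslinked, sonicated chromatin and single-end Illumina sequencing. Per the submitters' processing notes, Bowtie 0.12.8 and hg19 were used. The caller of the regions, its threshold and any use of the input are not stated in what was used here. The score in the deposited lists is the authors' value per region, without a stated meaning. It takes 12 values for H3K27ac and 13 for H3K4me1, and low scores were taken as the more stringent. Because caller and threshold set the number and width of regions, differences hold for the lists. Copy number was not corrected for.

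Starts were read as 0-based and are printed counted from 1. Mitochondrial regions were left out. Chromosome spans ran to the last region of either list, and tiles started at the first base. Gene lengths, gene order and promoter letters came from RefSeq tables of GRCh38, and no coordinate was converted between builds. The overlap and cover code was tested on 25 simulated lists, with a difference in 0 of them. The genes, windows and motifs were chosen with earlier results of these data known, and the rule that picks regions within a window uses positions only. Every region was counted. The rule for naming covered, per gene and mark, the widest region, those of lowest score, those without the other mark and the longest stretch of H3K27ac without H3K4me1. Some of these are given by width or count only, and other regions and all breaks were named to show the members. The alternatives are given in the closing section. Values came from Python 3.11.15 with scipy 1.17.1 and numpy 2.4.6, tables from pandas 2.3.3 and figures from matplotlib 3.10.9.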

Additional observations from a re-analysis of the deposited data

How the results depend on the processing

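Of 176 alternative values, 156 stayed within 1.5-fold of the reported value, or within its interval for overlap shares, 12 moved and 8 changed sign. Over all windows 3 of 36 moved, and for single genes 9 of 140. The number of H3K4me1 regions was 41 in place of 66 at scores up to the list median, since fewer regions are kept. That limit also left 6 of 10 H3K27ac regions at CDH1, and 4 of 9 H3K4me1 regions at EPCAM and 9 of 17 at ESRP1, and merging within 1 kb left 7 of 12 at ELF3. The lower minus upper difference for H3K27ac was 9.32 points in place of 14.1 at ESRP1 and -1.70 in place of -10.4 at CLDN4 at scores up to the median, and for H3K4me1 -7.70 in place of -11.6 at CLDN4 with scores under 0.05. With each gene placed in the middle of its window, the lower minus upper difference was replaced by the 10 kb around the start minus the flanks, which gave 40.2 points for H3K27ac and 35.3 for H3K4me1, in place of 13.6 and 17.7. This placement is an assumption and also turned the sign at EPCAM (-3.59 for H3K27ac and -9.35 for H3K4me1), ELF3 (25.2 and 12.4) and CLDN4 (73.2 and 76.8), and gave 58.1 and 37.3 at ESRP1. Cutting the window in 2 equal parts turned it at CLDN4 (3.20 and 8.0). Both settings compare other stretches than the main one. The order of cover between the 5 genes was the same for both marks with windows widened by 10 kb and with scores no higher than the list median, and for H3K4me1 with scores under 0.05. The share of H3K27ac regions meeting H3K4me1 was 92.6% at scores up to the median, 94.3% with H3K4me1 scores under 0.05 and 97.1% with at least 50% of the region covered. The share of the whole list under these settings is not given here. The 83.1% of the list holds for the main rule only and cannot be set against them. Tiles holding a region of either list, chosen after the data were seen, gave a median share of 3.22% in place of 2.40% for H3K27ac. The unknown depth bears on every statement about a stretch without regions. No paired analysis was possible because there is a single library per mark.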
